A study of Mus musculus with 24 samples.

Results

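Zfas1 and 7 other noncoding genes that carry small nucleolar RNAs (snoRNAs) in their introns were followed in the hypothalamus of overfed mice. These 8 genes, of 55471 counted, are Zfas1, 2410006H16Rik, Gas5, Snhg1, Snhg3, Snhg6, Snhg8 and Snhg12. They were taken by name as noncoding snoRNA hosts, and the set was chosen by the fold changes of ExpOF against Control mice in these data, in which Zfas1 and 2410006H16Rik were lower on both days. The comparison of overfed (ExpOF) with control mice is therefore given here as a description, without a test of the 8 genes.

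Hypothalamic RNA came from male C57BL6/J mice, 18 weeks of age and kept on chow, that carried an intragastric line. Overfed mice (ExpOF) received a hypercaloric liquid diet and control mice received sterile water through the same kind of line, and all animals could still eat chow. Mice were killed at the end of 14 days of infusion (d14) or on day 17, after 3 days in which the overfed mice also received water (d14+3), which gives an ExpOF and a Control group on each of the days. Libraries were made from single mice, 6 per group, and Control d14 holds 5 here because replicate 4 was left out. A mouse of that group was removed in the study for poor RNA quality.

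Between 8928182 and 34848437 reads were counted per library in the 23 libraries used. At d14 the labels give an RNA integrity number (RIN) of 9.75 ± 0.138 for overfed (SD, n = 6) and 9.20 ± 0.860 for control mice (SD, n = 5), and at d14+3 of 9.43 ± 0.450 and 8.62 ± 1.09 (SD, n = 6 each). All 8 hypothalamic markers looked for (Nkx2-1, Pomc, Agrp, Hcrt, Pmch, Avp, Oxt and Trh) were counted, with a summed level of 481 to 1256 CPM (counts scaled to a common library total). The summed level of 4 choroid plexus markers was at most 36.7 CPM except in Control d14 replicate 5 (2995 CPM) and ExpOF d14+3 replicate 4 (1243 CPM). The summed level of 4 pituitary markers was at most 20.2 CPM except in Control d14 replicates 1 and 2 (104 and 40.03 CPM), with medians of 9.18 CPM in Control and 2.61 CPM in ExpOF mice at d14. The medians of the hypothalamic and of 4 erythrocyte markers were lower in ExpOF than in control mice on both days, with 737 against 848 and 573 against 649 CPM for the hypothalamic and 93.7 against 118 and 68.6 against 78.2 CPM for the erythrocyte markers. Leptomeningeal markers summed to 30.2 to 104 CPM. The medians were 36.8 against 45.3 CPM (ExpOF against Control) at d14 and 36.1 against 41.7 CPM at d14+3. The part of all these markers in the values below was not tested.

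A snoRNA host gene is transcribed and spliced like a messenger RNA, and the snoRNAs are trimmed out of its removed introns. Box C/D snoRNAs then guide ribose methylation and box H/ACA snoRNAs guide pseudouridylation, mostly on ribosomal RNA, so that the hosts supply parts of the machinery that makes ribosomes. The spliced exons of many noncoding hosts code for no protein of known use and are degraded by nonsense-mediated decay once ribosomes engage them. Several hosts begin with the terminal oligopyrimidine (TOP) start that is typical of ribosomal protein genes and ties translation to nutrient signalling through mTOR. Gas5 was first described as a transcript that accumulates in growth-arrested cells.

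The counts measure polyadenylated host RNA and not the mature snoRNAs, which carry no poly-A tail and were not selected into these libraries. The counted bases cover the whole span of Snhg1, Snhg8 and Snhg12 and 3760 of the 4118 bases of Gas5. Reads from introns of these hosts are therefore counted too. The 8 hosts hold 33 annotated snoRNA genes on their own strand, at 31 places because Snord80 in Gas5 and Snora16a in Snhg12 are each annotated as a pair of overlapping genes. Of the 33, 2 passed the expression filter (Gm23201 in Zfas1 and Snord49a in 2410006H16Rik), at a mean of 0.491 and 0.339 CPM. All 8 hosts passed that filter.

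Zfas1 (ENSMUSG00000074578) lies on chromosome 2 at 167062934–167065862 on the plus strand (mm10) and holds 3 snoRNAs. Their sequences are shown because they are the known products of the gene that leads the set. They are written 5′ to 3′ as DNA from the GENCODE vM21 transcripts, and capitals mark box C (TGATGA, searched in the first 15 bases) and box D (CTGA, searched in the last 15 bases), the sites that the core snoRNP proteins bind.
Gm25878: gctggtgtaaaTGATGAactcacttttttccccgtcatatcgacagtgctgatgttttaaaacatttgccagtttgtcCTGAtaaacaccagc
Gm23201: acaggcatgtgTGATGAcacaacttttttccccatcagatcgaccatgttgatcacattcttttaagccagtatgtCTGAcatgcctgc
Snord12: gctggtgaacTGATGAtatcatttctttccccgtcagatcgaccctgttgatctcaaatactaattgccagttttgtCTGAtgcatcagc

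Both boxes were found in all 3 snoRNAs of Zfas1. The 3 sequences resemble each other, with an identical run of 12 bases between Gm23201 and Gm25878 and of 11 bases between Snord12 and either of them. 2410006H16Rik (ENSMUSG00000086841, chromosome 11, 62602877–62604807, plus strand) also holds 3 box C/D snoRNAs, which are shown for the same reason and with the same capitals.
Snord49b: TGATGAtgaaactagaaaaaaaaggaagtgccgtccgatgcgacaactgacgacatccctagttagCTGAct
Snord49a: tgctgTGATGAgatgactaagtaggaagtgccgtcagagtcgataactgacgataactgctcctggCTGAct
Snord65: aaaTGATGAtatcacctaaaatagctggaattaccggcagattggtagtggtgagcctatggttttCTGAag

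Snord49a and Snord49b share a run of 13 bases (aggaagtgccgtc) that Snord65 does not have. Across the 8 hosts, both boxes were found by this search in 21 (63.6%) of the 33 annotated snoRNA genes, at 20 of the 31 places, against 305 (20.2%) of all 1507 annotated snoRNA genes. Gas5 (chromosome 1, 161034422–161038539, plus strand) holds snoRNAs at 9 places, 7 of them with both boxes. Snhg1 (chromosome 19, 8723475–8726443, plus strand) holds 8, of which 5 have both boxes. Snhg6 (chromosome 1, 9941959–9944118, minus strand) holds Snord87, a box C/D snoRNA. The hosts of box H/ACA snoRNAs are Snhg3 (chromosome 4, 132348014–132353686, minus strand, with Snora73a and Snora73b), Snhg8 (chromosome 3, 123507552–123508404, minus strand, with Snora24) and, at 3 of its 4 places, Snhg12 (chromosome 4, 132308623–132311024, plus strand). The search found no snoRNA with both boxes C and D in Snhg3 or Snhg8.

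The transcription starts were compared because a TOP start would place a host with the ribosomal protein genes. For 7 of the 8 hosts, RefSeq (GRCm38.p6) gives a start, and each window below runs from 30 bases before the start onward for 60 bases in the direction of transcription. Capitals mark a pyrimidine run, defined as a C followed by at least 4 letters that are each C or T and beginning within 5 bases of the start, searched on the transcribed strand.
2410006H16Rik: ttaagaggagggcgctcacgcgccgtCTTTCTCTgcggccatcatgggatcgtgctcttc
Gas5, downstream start: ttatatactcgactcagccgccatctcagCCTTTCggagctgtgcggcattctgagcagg
Snhg8: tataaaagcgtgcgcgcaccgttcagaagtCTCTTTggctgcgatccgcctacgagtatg
Snhg12: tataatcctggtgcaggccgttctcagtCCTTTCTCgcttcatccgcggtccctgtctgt
Zfas1: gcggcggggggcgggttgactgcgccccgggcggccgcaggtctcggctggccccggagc

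These windows lie at chr11:62602847-62602906, chr1:161035136-161035195, chr3:123508307-123508366, chr4:132308648-132308707 and chr2:167062904-167062963, the window of Snhg8 on the minus strand. The run was found for 5 of the 7 hosts, in 5 (62.5%) of their 8 windows, with 8 bases in 2410006H16Rik and Snhg12, 6 in Snhg8 and in the downstream of the Gas5 starts, and 5 in Snhg3. No such run was found at the annotated starts of Zfas1 and Snhg1. The same search found a run in 18.3% of all 32851 windows, in 33 (42.9%) of 77 windows of ribosomal protein genes and in 13 (34.2%) of 38 windows of other noncoding snoRNA hosts. A start that is annotated some bases away from the true one would hide a run, so a missing run says only that these letters are not in the window.

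Per kilobase of annotated exon, 2410006H16Rik had the highest level of the 8 hosts, at 38.1 ± 10.3 CPM per kb (SD, n = 23 libraries). Gas5 followed at 34.6 ± 5.86 and Zfas1 at 20.7 ± 5.60 CPM per kb. Snhg8 had 13.4 ± 3.75, Snhg12 10.2 ± 1.80, Snhg1 5.70 ± 0.726, Snhg6 5.43 ± 1.23 and Snhg3 0.757 ± 0.237 CPM per kb. The neighbours 2410006H16Rik and Gas5, Snhg8 and Snhg12, and Snhg1 and Snhg6 differed by less than the larger of their SDs. Exon length is the sum over all annotated isoforms and equals the whole span for Snhg1, Snhg8 and Snhg12, so that the levels of these 3 are spread over introns as well. It covers 3760 of 4118 bases in Gas5 and 462 of 1931 in 2410006H16Rik. The order of Gas5 and 2410006H16Rik per kilobase therefore depends on the annotation. Snhg3 rests on 5 to 34 counts per library, whereas Gas5 rests on 1240 to 6257.

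Zfas1 was lower in ExpOF than in control mice on both days, the property it was chosen for. In Control d14 it stood at 33.8, 68.4, 38.97, 49.5 and 58.6 CPM in replicates 1, 2, 3, 5 and 6, and in ExpOF d14 it ranged from 27.5 to 40.2 CPM with a median of 33.6. Of the 5 control mice, replicates 1 and 3 lay within the ExpOF range and the other 3 above it. In Control d14+3 Zfas1 ranged from 37.4 to 53.0 CPM (median 43.2, n = 6) and in ExpOF d14+3 from 24.7 to 38.7 CPM (median 29.8, n = 6). Here 5 of 6 ExpOF mice lay below every control mouse. ExpOF replicate 5 (38.7 CPM) lay above Control d14+3 replicate 6 (37.4 CPM) and below the other controls. The log2 fold change of ExpOF against Control was -0.54 (SE 0.144) at d14 and -0.53 (SE 0.139) at d14+3. In whole tissue, fewer cells that express a gene and less RNA per cell cannot be told apart.

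2410006H16Rik, a host without a protein product, had the same order of groups as Zfas1. Its level was 15.9, 26.4, 20.0, 22.2 and 26.8 CPM in Control d14 replicates 1, 2, 3, 5 and 6, and 13.2 to 18.2 CPM (median 14.99) in ExpOF d14. Control d14 replicate 1 was the only control mouse inside the ExpOF range on that day. At d14+3 the level was 17.0 to 26.6 CPM (median 18.2) in control mice and 9.79 to 17.9 CPM (median 13.7) in ExpOF mice, where again only ExpOF replicate 5 reached the controls. The log2 fold change was -0.55 (SE 0.146) at d14 and -0.58 (SE 0.141) at d14+3.

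**Figure D1:**
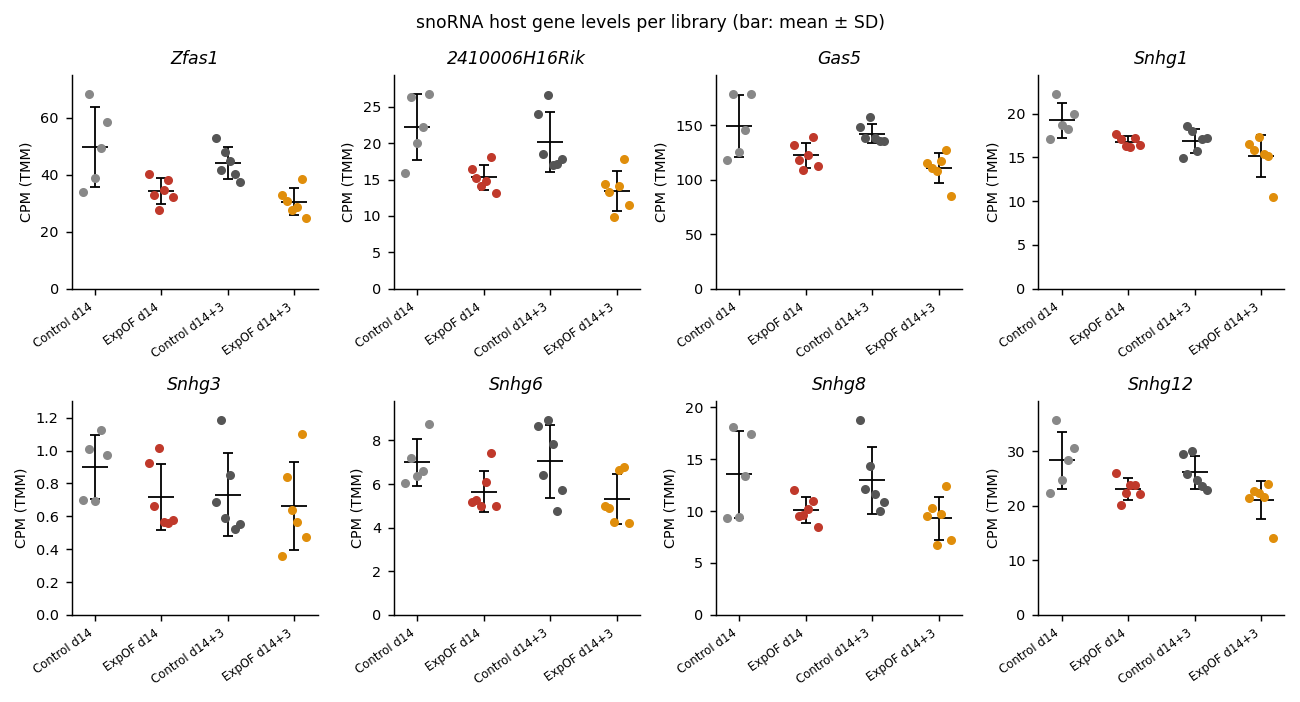
Level of each host gene (CPM scaled with TMM factors, y axis from 0) in the 4 groups, 1 point per library, with the mean and SD as black bars (Control d14 n = 5, other groups n = 6). Control d14 is the most scattered group for Zfas1 (33.8 to 68.4 CPM), and for Gas5 the d14+3 groups do not overlap (85.2 to 127 CPM in ExpOF, 135 to 157 CPM in Control).

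Gas5 had the highest CPM of the 8 hosts. It was counted at 118, 179, 125, 145 and 179 CPM in Control d14 replicates 1, 2, 3, 5 and 6, and at 109 to 139 CPM (median 120) in ExpOF d14. Control d14 replicates 1 and 3 again lay within the ExpOF range. At d14+3 it ranged from 135 to 157 CPM (median 138) in control mice and from 85.2 to 127 CPM (median 113) in ExpOF mice, so that the groups did not overlap. Groups that do not overlap with ExpOF lower were seen for 0.284% of all 18992 genes tested at d14+3, and Gas5 was the only 1 of the 8 hosts. At d14 the share was 1.08% of all genes and 0 of the 8 hosts. The log2 fold change of Gas5 was -0.28 (SE 0.102) at d14 and -0.36 (SE 0.0979) at d14+3.

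Snhg8, the host of the H/ACA snoRNA Snora24, had log2 fold changes of -0.42 (SE 0.184) and -0.47 (SE 0.177) on the respective days. Its level was 9.31 to 18.1 CPM in Control d14 and 8.43 to 12.0 CPM in ExpOF d14, and 9.97 to 18.8 CPM in Control d14+3 and 6.72 to 12.4 CPM in ExpOF d14+3. The groups overlapped on both days, and the highest control mice stood above any ExpOF mouse. Snhg12 had log2 fold changes of -0.29 (SE 0.118) and -0.31 (SE 0.113), with 22.3 to 35.7 against 20.1 to 26.03 CPM (Control against ExpOF) at d14 and 22.9 to 30.2 against 14.1 to 24.1 CPM at d14+3. Snhg6, the host of Snord87, had -0.33 (SE 0.160) and -0.41 (SE 0.153), with 6.03 to 8.74 against 4.98 to 7.40 CPM at d14 and 4.77 to 8.92 against 4.19 to 6.78 CPM at d14+3.

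The 95% intervals of ExpOF against Control describe the fit and are no test, because these contrasts chose the set. At d14 the interval of Snhg6 was -0.66 to 0.0038. The log2 fold change of Snhg1 was -0.19 (SE 0.0941, 95% interval -0.39 to 0.0022) at d14. At d14+3 it was -0.16 (SE 0.0904, 95% interval -0.34 to 0.029). At d14+3 the value of Snhg1 was -0.074 without ExpOF d14+3 replicate 6, which had 10.4 CPM where the other 5 ExpOF mice had 15.2 to 17.3 CPM. Snhg3 had log2 fold changes of -0.28 (95% interval -0.83 to 0.26) and -0.17 (95% interval -0.71 to 0.37). Its sign at d14+3 turned to 0.034 without Control d14+3 replicate 2 and to 0.25 in the July cohort alone.

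**Figure D2:**
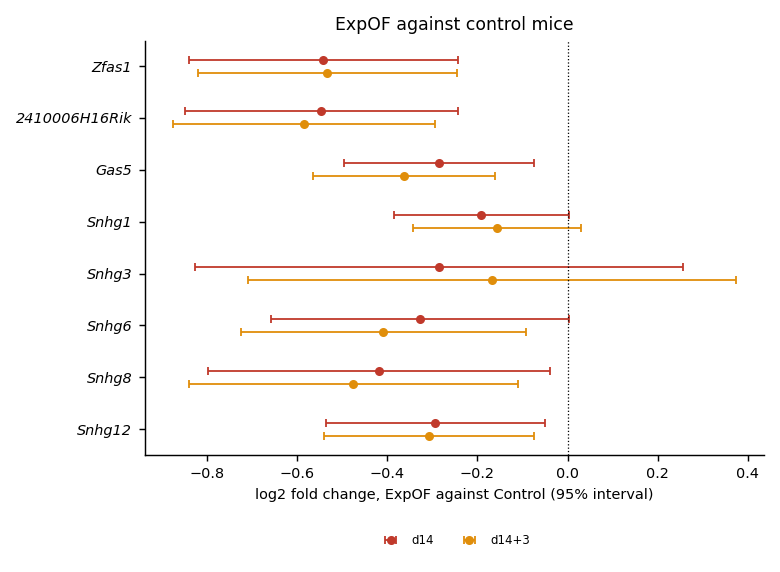
Log2 fold change of ExpOF against Control mice for each host gene at d14 (red) and d14+3 (orange), with 95% intervals from the edgeR fit over 23 libraries. All 16 points lie below 0, from -0.58 to -0.16. The intervals are no test, because these contrasts chose the set.

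All 8 hosts had a negative log2 fold change on both days, with a median of -0.31 at d14 and -0.39 at d14+3. Among all 18992 genes tested, 53.4% had a negative value at d14 and 47.9% at d14+3, with medians of -0.021 and 0.0070, and nothing is read from the count of the 8 because they were chosen with these contrasts known. The mice came from a July and a September cohort. In September, Control d14 holds replicates 1 and 5 alone, so the September values at d14 rest on few control mice. The median over the 8 hosts was -0.37 in July and -0.25 in September at d14, and -0.51 in July and -0.34 in September at d14+3. Within cohorts, Zfas1 had -0.58 (July) and -0.40 (September) at d14 and -0.60 and -0.48 at d14+3. 2410006H16Rik had -0.57 and -0.43 at d14 and -0.84 and -0.37 at d14+3.

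The comparisons between days, which were not the contrasts that chose the 8 hosts but use the same libraries, ask whether the host genes moved during the 3 days after overfeeding. In ExpOF mice, d14+3 against d14, 0 of 8 hosts passed edgeR's quasi-likelihood test at an adjusted p of 0.05 (0% of all genes called, 7.79% at an unadjusted p under 0.05, 0 of 8 hosts). The log2 value of Zfas1 was -0.16 (95% interval -0.45 to 0.13) and that of Gas5 -0.15 (95% interval -0.35 to 0.055). The 8 values ranged from -0.18 in 2410006H16Rik to -0.072 in Snhg6, with adjusted p between 0.768 and 0.95. Within cohorts the sign of Zfas1 was not shared, with -0.42 in July and 0.091 in September.

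In control mice between the same days, 0 of 8 hosts were called (1.15% of all genes called, 218 genes, and 12.7% at an unadjusted p under 0.05, 0 of 8 hosts). The log2 value of Zfas1 was -0.17 (95% interval -0.47 to 0.12), and those of the 8 hosts ranged from -0.29 in Snhg3 to 0.010 in Snhg6, with edgeR adjusted p between 0.418 and 0.992. The control mice had been infused with water throughout, so this contrast holds no change of diet. Within cohorts Zfas1 again had opposite signs, with -0.40 in July and 0.17 in September, where Control d14 holds replicates 1 and 5 alone.

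The difference between days of the ExpOF against Control values is built from the same contrasts that chose the set, which favours a small difference for Zfas1 and 2410006H16Rik, so it is given without a test. For Zfas1 it was 0.0094 on the log2 scale, with a 95% interval of -0.40 to 0.42. For 2410006H16Rik it was -0.038 (95% interval -0.46 to 0.38) and for Gas5 -0.077 (95% interval -0.37 to 0.22). For Zfas1 and 2410006H16Rik these intervals leave room for differences between days nearly as large as the ExpOF against Control values themselves. For Gas5 the interval reaches -0.37, beyond its ExpOF against Control values of -0.28 at d14 and -0.36 at d14+3.

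RNA integrity and cohort were followed inside the groups because both vary among the mice. Of the 8 hosts, 1 had a negative slope with RIN (50.7% of all genes had) and 0 were called by edgeR (0% of all genes called). The slope of 2410006H16Rik was 0.16 per RIN unit on the log2 scale (95% interval 0.015 to 0.30, adjusted p = 0.715 in edgeR's quasi-likelihood test) and that of Snhg6 was 0.17 (95% interval 0.014 to 0.33, adjusted p = 0.715). These were the 2 hosts with an unadjusted p under 0.05, where 6.42% of all genes had it. Zfas1 had a slope of 0.084 (95% interval -0.070 to 0.24). The ExpOF groups had the higher mean RIN on both days, and with RIN as a covariate the log2 fold change of Zfas1 was -0.58 at d14 and -0.59 at d14+3. RIN ran only from 9.6 to 10 in ExpOF d14, against 8 to 10 in Control d14 and 7.2 to 9.9 in Control d14+3. The common slope therefore rests little on ExpOF d14, and the part of RIN in the fold changes was not tested. September against July gave 0 called hosts (0% of all genes called, 4.28% at an unadjusted p under 0.05, 0 of 8 hosts), with log2 values from -0.054 in Gas5 to 0.20 in Snhg3.

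**Figure D3:**
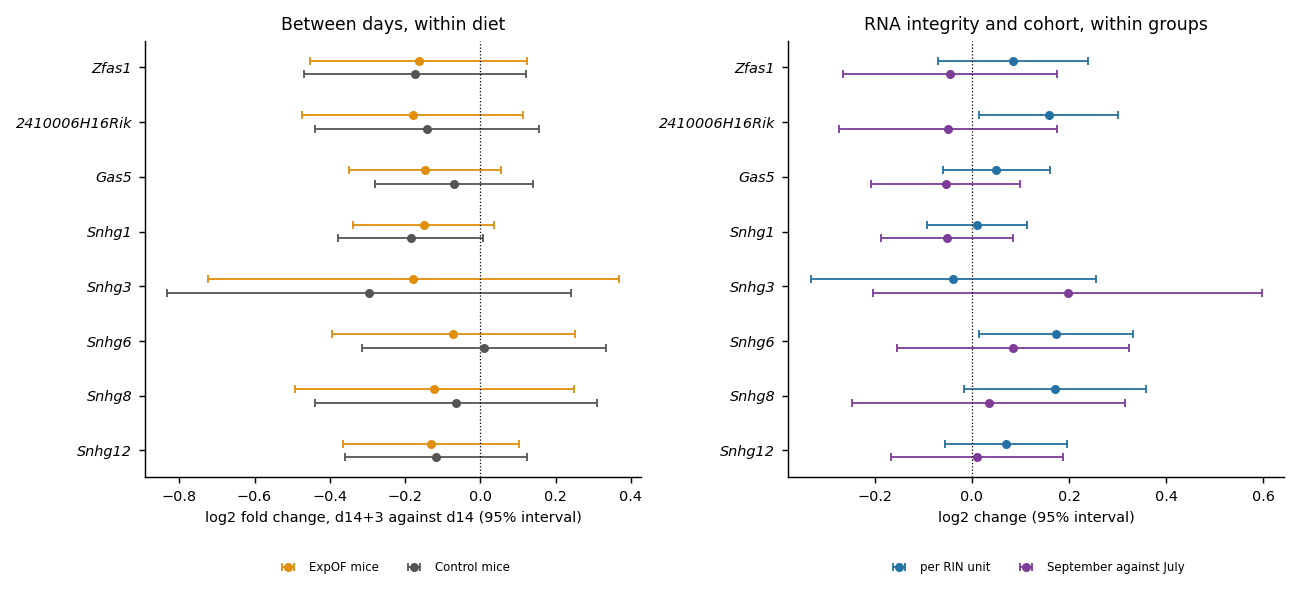
Log2 values with 95% intervals from edgeR for the 8 host genes in contrasts that did not choose them. Left, d14+3 against d14 within ExpOF (orange) and within Control mice (grey); right, the slope per RIN unit (blue) and September against July (purple), both within groups. The intervals include 0 except for the RIN slopes of 2410006H16Rik and Snhg6.

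The likeness of the hosts to each other was measured among mice of the same group. Zfas1 was compared with 14172 genes by the Pearson correlation of log2 CPM, taken as deviations from the group means over 23 libraries, and the most similar genes were Swi5 (r = 0.962), Rps25 (0.932), Rps27a (0.931) and Rpl21 (0.930). Swi5 takes part in DNA recombination repair and the other 3 encode ribosomal proteins. Among the other hosts, Gas5 was at rank 24 (r = 0.908), Snhg8 at rank 46 (r = 0.890), 2410006H16Rik at rank 234 (r = 0.822), Snhg12 at rank 240 (r = 0.820), Snhg6 at rank 1881 (r = 0.625) and Snhg1 at rank 3919 (r = 0.425). Snhg3 had too few counts for this ranking. Likeness to Zfas1 was common, with r above 0.5 for 22.3% of the genes, and the libraries share depth, RNA quality and tissue composition, whose part was not tested. Over the 28 pairs of hosts, r had a median of 0.659 and ranged from 0.137 (Snhg1 and Snhg6) to 0.908 (Zfas1 and Gas5). Snhg3 had at most 0.418 with any other host, and Snhg1 had 0.266 with 2410006H16Rik and 0.269 with Snhg8.

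The same deviations were set against the mean of 79 cytosolic ribosomal protein genes, many of which have processed pseudogenes that can take up reads. The r with this mean over 23 libraries was 0.902 for Zfas1, 0.933 for 2410006H16Rik, 0.891 for Gas5 and 0.894 for Snhg8. For Snhg12 it was 0.791, for Snhg6 0.742, for Snhg1 0.376 and for Snhg3 0.329. Spearman's rho was 0.900 for Zfas1 and 0.330 for Snhg1. Without the 2 libraries farthest from the median ribosomal level, r was 0.859 for Zfas1, 0.904 for 2410006H16Rik and 0.329 for Snhg1. Within cohorts, Zfas1 had r = 0.904 in July (12 libraries) and 0.901 in September (11 libraries), while Snhg1 had 0.376 and -0.18. Snhg6 had 0.788 and 0.574. The r of all other genes with this mean was not computed, so the values do not show a trait particular to the hosts. Of the 79 ribosomal protein genes, 77 had a positive slope with RIN within groups, and the part of RIN in these r values was not tested. The spread of Snhg1 among mice of a group was an SD of 0.16 on the log2 scale, against 0.26 for Zfas1.

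**Figure D4:**
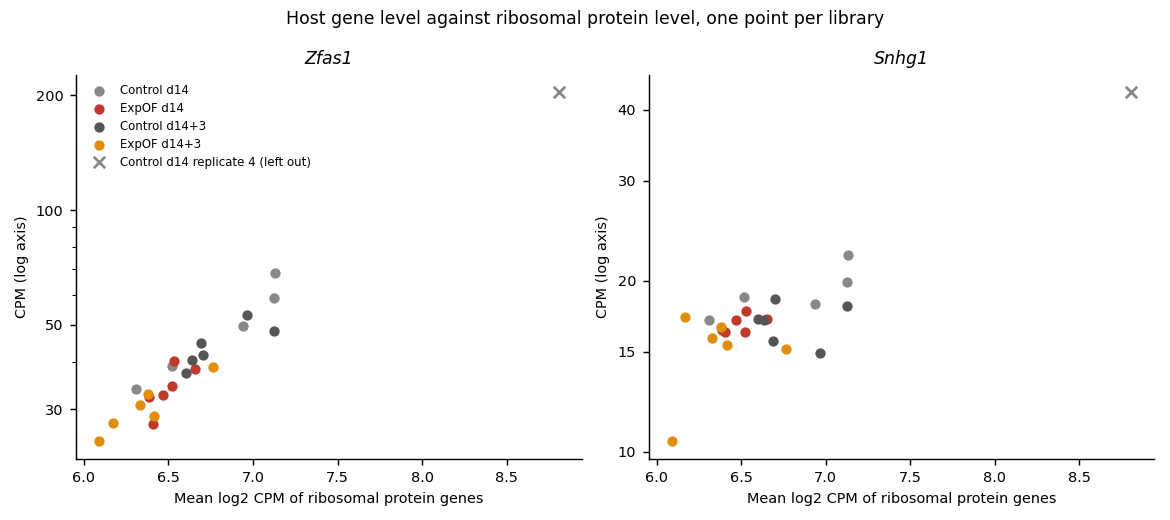
Level of Zfas1 (left) and Snhg1 (right) in CPM (log axis) against the mean log2 CPM of the ribosomal protein genes, 1 point per library coloured by group; the cross is Control d14 replicate 4, which was left out of all comparisons. Zfas1 rises along the x axis over the 23 libraries used, and Snhg1 stays mostly between 15 and 20 CPM.

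The ribosomal protein genes had values of the same sign as the hosts, and 0 of them passed the test. Their summed level was 8286 to 14534 CPM in Control d14 and 8743 to 10191 CPM in ExpOF d14, and 9937 to 13872 CPM in Control d14+3 and 7474 to 11366 CPM in ExpOF d14+3. At d14, 79 of 79 had a negative log2 value (median -0.35) and 0 were called by edgeR, and at d14+3 it was 78 of 79 (median -0.44) with 0 called. At an unadjusted p under 0.05 there were 69 and 65 of them, all lower, where 13.6% and 4.2% of all genes were lower. The 8 hosts were chosen by these contrasts, so nothing is read from the likeness in sign. Whether the hosts and the ribosomal protein genes moved together between ExpOF and Control mice was not tested.

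Other noncoding hosts were found by position, as noncoding genes with a snoRNA gene inside their span on the same strand. Of 59 such genes counted, 29 were tested, and 17 of the 29 had a negative log2 value on each day, with medians of -0.066 at d14 and -0.049 at d14+3. 0 of the 29 were called by edgeR on either day (0.00527% and 0% of all genes). At an unadjusted p under 0.05 there were 3 higher and 7 lower at d14, where 13.1% of all genes were higher and 13.6% lower, and 1 higher and 4 lower at d14+3, where 2.91% were higher and 4.2% lower. Without Control d14 replicate 1, 8 of the 29 were called at d14, where 4220 of 19206 genes were called in all. The 6 most abundant were Rian (848 CPM), Cct6a (185 CPM, annotated here as noncoding), Snhg14 (91.9 CPM), Snhg17 (17.5 CPM), 1110038B12Rik (12.3 CPM) and Gm29170 (9.60 CPM). Rian and Snhg14, long imprinted transcripts that hold snoRNA clusters, had positive values of 0.23 (SE 0.0771) and 0.39 (SE 0.175) at d14 and 0.13 (SE 0.0733) and 0.30 (SE 0.166) at d14+3. 1110038B12Rik had -0.28 (SE 0.0939) and -0.29 (SE 0.0902), while Cct6a had -0.066 and -0.035 and Snhg17 had 0.0068 and 0.043. Gm29170 had 0.25 (SE 0.0929) and 0.19 (SE 0.0884).

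Protein-coding hosts were split by product. The 30 that encode ribosomal proteins all had negative values on both days (medians -0.34 and -0.41, 0 called), for instance Rpl4 with -0.27 (SE 0.0883) and -0.069 (SE 0.0844) and Rpl3 with -0.32 (SE 0.114) and -0.40 (SE 0.110). Of the other 208 tested, 69 had a negative value at d14 and 72 at d14+3 (medians 0.080 and 0.038, 0 called). Snhg11, annotated here as protein-coding, had 0.073 and -0.022, and the elongation factor Eef2 had -0.11 and -0.045. Between the days in control mice, 2 of the 208 were called, where 1.15% of all genes were called, so nothing is read from this count. They were Ero1lb (0.29, SE 0.0596) and Sh3d19 (0.55, SE 0.126), both higher at d14+3.

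**Figure D5:**
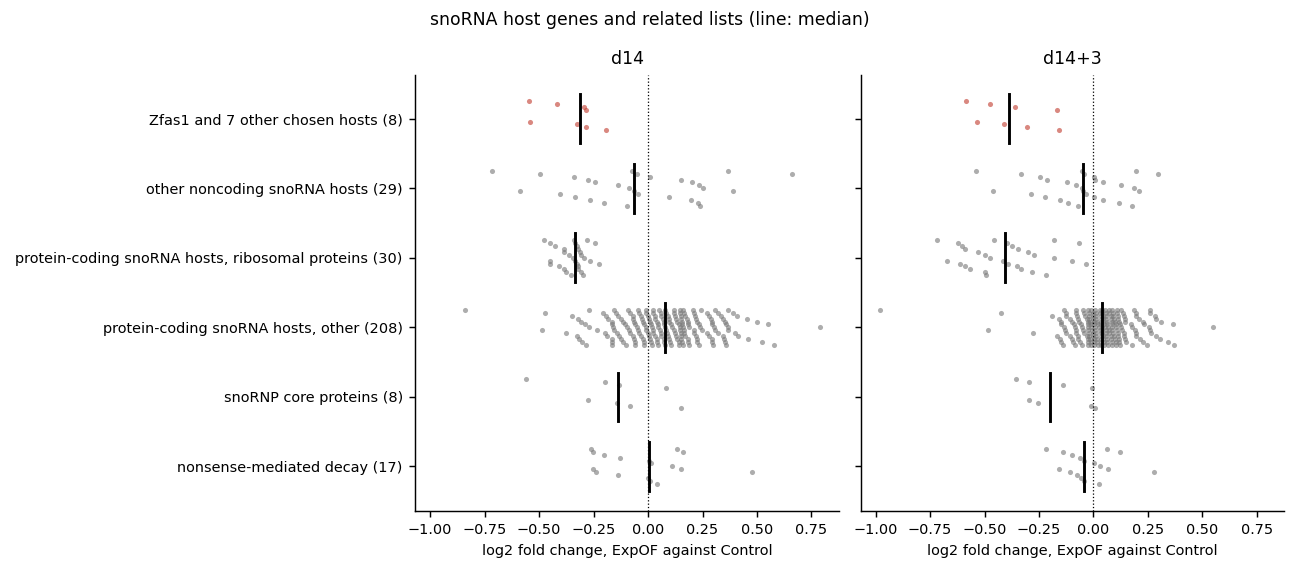
Log2 fold change of ExpOF against Control at d14 (left) and d14+3 (right) for the 8 chosen hosts (red) and for 5 lists of tested genes (grey, number of genes in brackets), 1 point per gene and a black line at each median. The medians are -0.31 and -0.39 for the chosen hosts and -0.34 and -0.41 for the ribosomal protein hosts. The other noncoding hosts spread to both sides of 0 (-0.066 and -0.049). Nothing is read from the place of the chosen hosts beside the lists, because these contrasts chose the set.

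Genes that act on snoRNAs and on host transcripts were counted on the same scale, and 0 of them were called by edgeR on either day. The 8 core proteins of the snoRNP particles had medians of -0.14 at d14 and -0.20 at d14+3, with 6 and 7 of 8 negative and 4 and 3 lower at an unadjusted p under 0.05, where 13.6% and 4.2% of all genes were lower. Nop56 and Nop58, the paired C/D scaffold proteins, had -0.14 (SE 0.0523) and 0.15 (SE 0.0887) at d14. The 11 assembly factors had medians of -0.030 and -0.00063, with Nolc1 at 0.051 and Rpap3 at -0.17 at d14. At an unadjusted p under 0.05, 2 of them were higher and 1 lower at d14, where 13.1% of all genes were higher and 13.6% lower. At d14+3 it was 0 higher and 0 lower, where 2.91% of all genes were higher and 4.2% lower. The 17 genes of nonsense-mediated decay, which removes many of these host transcripts, had medians of 0.0043 and -0.044. By the same count, 2 were higher and 4 lower at d14, and 0 higher and 1 lower at d14+3. The kinase of this decay, Smg1, had 0.48 (SE 0.190) at d14 and 0.28 (SE 0.180) at d14+3, with Smg5 at -0.000014 and -0.061. The 18 tested genes of the RNA exosome and related decay had medians of -0.033 and 0.052. Of these, 4 were higher and 3 lower at d14 by the same count, and 1 higher and 0 lower at d14+3. Dcp2, which removes the cap, had 0.34 (SE 0.109) and 0.087 (SE 0.103), and the exosome helicase Mtrex 0.10 and 0.092. Of 18 TOP messenger RNAs other than those of ribosomal proteins, 17 had negative values on each day (medians -0.20 and -0.11), and 11 and 4 were lower at an unadjusted p under 0.05 (13.6% and 4.2% of all genes), with the elongation factor Eef1a1 at -0.18 (SE 0.0653) and 0.010 (SE 0.0624).

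Some hosts share bases with a neighbour on the opposite strand, and whether the counting used strand is not given in the sources used here. Zfas1 overlaps Gm27494, a short RNA gene on its own strand, by 189 bases, and Znfx1 on the other by 82 bases, and Znfx1 had a log2 fold change of 0.13 (SE 0.0707) at d14 and 0.066 (SE 0.0671) at d14+3. Gas5 overlaps Zbtb37 by 428 bases, and Zbtb37 had 0.59 (SE 0.231, adjusted p = 0.143 in edgeR's quasi-likelihood test) and 0.24 (SE 0.218). Snhg6 overlaps Mcmdc2 by 127 bases (0.34 and 0.16 for Mcmdc2), and Slc3a2 starts 106 bases from Snhg1 on the other strand (-0.21 and -0.091). Snhg3 lies inside Rcc1 on the same strand for 5592 of its 5673 bases and shares 1611 bases with Gm17300 on the other, and Rcc1 had -0.058 (SE 0.102) and 0.090 (SE 0.0970) and Gm17300 -0.23 (SE 0.213) and 0.012 (SE 0.205). Reads in bases shared with Rcc1 cannot be told apart from its own, so the Snhg3 counts are uncertain. No overlap with another gene than its own snoRNAs was annotated for 2410006H16Rik, Snhg8 and Snhg12.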

How the data were processed

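The authors prepared poly-A selected, stranded libraries, aligned paired-end reads to mm10 with STAR and GENCODE vM22 transcripts, counted them per gene with featureCounts 1.6.4 and deposited raw counts per gene without normalization. Gene symbols, types and snoRNA positions came from GENCODE vM21 (55230 of 55471 genes matched), and all 8 hosts had the same position there as in the deposited file.

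The 8 genes and all lists were chosen with earlier results of these data known. Counts were fitted in R 4.3.3 with edgeR 4.0.16 (TMM; filterByExpr at min.count 10 and min.total.count 15; glmQLFit, robust, on 23 libraries in 4 groups; glmQLFTest), with Benjamini-Hochberg adjustment over 18992 genes and a threshold of 0.05. Levels are CPM with TMM factors; correlations used log2 CPM with a prior count of 2 and genes with a mean of at least 50 counts. Intervals are 95% intervals of the fit. Control d14 replicate 4 was identified as the removed library by matching group means of the deposited counts to the study's mean expression values. Duplicated libraries were looked for and not found (60 pairs inside groups, lowest chi-square per degree of freedom 3.18).

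The genes named are the 8 hosts, the 6 most abundant other noncoding hosts, the 2 most abundant of each other list plus those with an adjusted p under 0.05, the 5 genes most like Zfas1 (of which 1 is not reported here), and neighbours at a host's start. Alternatives were DESeq2 1.42.0, its size factors, 2 other count filters, all 24 libraries, covariates for RIN or for cohort and extraction round, each cohort alone, a replicate block and each library left out. The scripts were tested on simulated data.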

Additional observations from a re-analysis of the deposited data

Results flagged for a closer look

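Control d14 replicate 4, the library left out of all comparisons, had the highest level of 7 of the 8 hosts among the control mice. Zfas1 stood at 204 CPM in it, where the highest other control mouse had 68.4 CPM. 2410006H16Rik stood at 86.0 CPM, Gas5 at 465 CPM, Snhg1 at 43.0 CPM, Snhg6 at 23.9 CPM, Snhg8 at 62.2 CPM and Snhg12 at 70.4 CPM. Snhg3, with 0.519 CPM, was not among them. The library had 10922271 counts, a RIN of 9.8 in the labels, 47127 CPM in ribosomal protein genes and 4531 CPM in choroid plexus markers, and the part of these in the host levels was not tested.

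ExpOF d14+3 replicate 6 was set apart from the other 5 mice of its group in Snhg1 (10.4 CPM, next lowest 15.2 CPM) and Snhg12 (14.1 CPM, next lowest 21.5 CPM) by Dixon's criterion. Over the 32 combinations of host and group examined, chance alone flags about 1 in 20. The same library had the lowest ribosomal protein level (7474 CPM) and a RIN of 10.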

How the results depend on the processing

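Nothing is read from the sign of the median of the 8 hosts, because the set was chosen by these contrasts in the same libraries. This median stayed below 0 under every alternative tried on both days. At d14 it ranged from -0.37 to -0.26 with each library left out in turn and was -0.73 with all 24 libraries, where Zfas1 had -1.11, 2410006H16Rik -1.07 and Gas5 -0.70. At d14+3 it ranged from -0.44 to -0.33 with a library left out. Snhg3 at d14+3 changed sign, to 0.25 in July alone and to 0.034 without Control d14+3 replicate 2 (range -0.35 to 0.034 with a library left out), and it dropped out when at least 10 counts were required in every library. Between days, with RIN and between cohorts, 0 of 8 hosts were called under every alternative.

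Counts over all genes moved more. For ExpOF against Control at d14 (1 called), DESeq2 gave 166, either cohort alone 0 and leaving out a library 1 to 4220 (3 without Control d14 replicate 3 and 4220 without Control d14 replicate 1). At d14+3 (0 called), DESeq2 gave 55 and RIN as a covariate 26. Between days in ExpOF mice (0 called), DESeq2 gave 202, the filter of at least 10 counts in every library 28, covariates for cohort and extraction round 78, and leaving out a library 0 to 157 (157 without ExpOF d14+3 replicate 3 and 87 without ExpOF d14 replicate 4). Between days in control mice (218 called), DESeq2 gave 531, either cohort alone 0 and leaving out a library 24 to 313; the counts were 24, 58, 51, 47 and 109 without Control d14 replicates 2 and 3 and Control d14+3 replicates 2, 4 and 1. The RIN slope (0 called) gave 3 with DESeq2. The cohort contrast (0 called) gave 236 with at least 1 count in all libraries together and 0 to 1 with a library left out. Of the other noncoding hosts at d14 (0 called), leaving out a library gave 0 to 8; the 8, without Control d14 replicate 1, were Rian, Snhg14, Gm29170, 1110038B12Rik, 1810032O08Rik, Epb41l4aos, Rab26os and Snhg5. The cause of these changes was not tested.

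Samples with the same replicate number did not deviate together (correlations from -0.40 to 0.35), so the numbers were not taken as pairs. A replicate block gave 33 calls between days in control mice and medians of the hosts of -0.34 at d14 and -0.40 at d14+3. Counting error limits Snhg3 most.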
